A study of Homo sapiens with 16 samples.

Results

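The 9 genes described here are MMP24, MMP14, MMP15, MMP17, MMP1 and MMP2, which encode matrix metalloproteinases (MMPs), and TIMP1, TIMP2 and TIMP3, which encode tissue inhibitors of metalloproteinases (TIMPs). They were picked by gene symbol from the 61906 genes listed for both cell lines, and all 9 were listed. MMP24 was picked because its level rose after the siRNA in both lines, so its siRNA values are a description and carry no test. Levels were measured by short-read RNA-seq in 12 libraries, 3 biological replicates in each of 4 groups. The groups are HEK-293T cells with siNegative, HEK-293T cells with siHNRNPH1, HT-1080 cells with siNegative and HT-1080 cells with siHNRNPH1. HEK-293T is a human embryonic kidney line with the large T antigen of SV40, and HT-1080 comes from a human fibrosarcoma. All cells received 20 nM of a small interfering RNA (siRNA) with Lipofectamine RNAi-Max, a negative control or one against HNRNPH1, which encodes an RNA-binding protein of splicing, and RNA was taken 48 h later. Full-length cDNA (IsoSeq) transcript models from 1 pool per group add the structure of the transcripts, without replicates and without counts.

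MMPs are zinc-dependent proteases that are made as inactive proenzymes and cut proteins of the extracellular matrix and of the cell surface. The membrane-type members stay attached to the cell, by a transmembrane segment (MMP14, MMP15, MMP24) or a lipid anchor (MMP17), while MMP1 and MMP2 are secreted. TIMPs bind the active site of the proteases, and TIMP2 also serves MMP14 as the bridge on which proMMP2 is held and activated at the cell surface. HT-1080 cells are widely used to study this activation and matrix invasion.

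The HEK-293T libraries held 107.7 to 121.0 M (mega) counts in all, and those of HT-1080 held 27.3 to 32.7 M. Levels are given as CPM, counts per M counts of a library. They are not divided by transcript length, so levels of different genes are not compared. HNRNPH1 itself stood at 1105 to 1121 CPM in HEK-293T siNegative and at 234, 376 and 394 CPM in siHNRNPH1 replicates 1 to 3. In HT-1080 it stood at 606 to 635 CPM with siNegative and at 228 to 231 CPM with siHNRNPH1. HEK-293T siHNRNPH1 replicate 1 stands apart from its group: the chi-square of its counts against replicates 2 and 3, divided by the degrees of freedom, was 811 and 847, against 9.10 between those 2 replicates and at most 17.8 within the other groups. HEK-293T fold changes and counts of calls are therefore given with and without that library. It also had the lowest HNRNPH1 level of its group, and whether its distance goes with that level was not tested. The labelled lines were checked against markers in the siNegative groups: NEFM averaged 258 CPM in HEK-293T and 0.011 in HT-1080, and CD44 averaged 1.68 and 3037, while THY1, listed as a marker of HT-1080, was near 0 in both. NEFL, listed as a marker of HEK-293T, went the other way, with 66.9 CPM in HEK-293T and 109.6 in HT-1080. Of 5 markers of other cell types, PTPRC, CD3E and PECAM1 averaged at most 0.13 CPM in every group. EPCAM averaged 0.71 CPM in HEK-293T siNegative and 1.39 with siHNRNPH1, and ALB 0.0088 and 0.22 CPM (0 to 2 and 18 to 30 counts). Both were called higher in HEK-293T (2 of 2 tested), with and without replicate 1, beside 5.12% and 30.4% of all genes. ALB passed the filter on low counts only through the siHNRNPH1 group, so its call could only be higher and carries no weight. The part of EPCAM and ALB in the results below was not tested.

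Upstream sequence was available for 5 of the 9 genes, from RefSeq (GRCh38.p14), and is shown because it is the stretch in which their promoters could share letters. In the 250 bases before the annotated start, the GC box (GGGCGG, or CCGCCC on the other strand) occurred 3 times in MMP24, once in MMP14, 5 times in MMP15, 2 times in TIMP1 and 5 times in TIMP3, and 42.6% of 35116 promoters of this length held at least 1. The stretch around the GC box nearest to the start follows for each gene, 5′ to 3′ on the plus strand, on which all 5 genes lie, with the box in capitals.
MMP24, chr20:35226633-35226662: cgccccccaccgGGGCGGggcgcgcggagg
MMP14, chr14:22836507-22836536: aggagggcactgGGGCGGggacggaggaga
MMP15, chr16:58025677-58025706: cgcccccggtccCCGCCCgggtccgcgcat
TIMP1, chrX:47582379-47582408: ccgctgccacccCCGCCCctagcgtggaca
TIMP3, chr22:32801675-32801704: tatatcactcggCCGCCCaggcagcggcgc
The box ends 39 bases before the start of MMP24, 60 before that of MMP14, 59 before that of MMP15, 39 before that of TIMP1 and 12 before that of TIMP3. GC content over the 250 bases was 77.6% for MMP24, 74.8% for MMP15, 72.4% for TIMP3, 64.8% for TIMP1 and 56.8% for MMP14. The AP-1 element searched as TGANTCA, palindromic in its fixed letters (6.6% of all promoters), and the TATA box searched as TATAAA on either strand (10.7%) were not among the letters of these 5 windows. These matches are descriptions of sequence, not binding sites.

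MMP24 (ENSG00000125966.10) encodes a membrane-type MMP that is best known from neurons, where it cuts N-cadherin and the amyloid precursor protein. In HEK-293T siNegative, MMP24 stood at 0.68, 0.65 and 0.68 CPM (76, 75 and 82 counts) in replicates 1 to 3. With siHNRNPH1 it stood at 6.08, 4.53 and 4.23 CPM (655, 547 and 456 counts). All 3 siHNRNPH1 libraries lay far above all 3 controls, and replicate 1 was the highest. The ratio of the group means was 7.39, and 6.55 without replicate 1. On the log2 scale the fold change was 2.87 (SE 0.21), and 2.65 (SE 0.12) without it. In HT-1080, MMP24 stood at 2.45, 2.39 and 2.25 CPM (67, 72 and 68 counts) with siNegative and at 18.9, 19.7 and 19.2 CPM (551, 644 and 548 counts) with siHNRNPH1. Again the groups were far apart and the replicates close together. The ratio of means was 8.16 and the log2 fold change 2.96 (SE 0.08). The log2 fold change in HT-1080 minus that in HEK-293T was 0.02 (SE 0.28), although the starting level was higher in HT-1080. Without HEK-293T siHNRNPH1 replicate 1 this difference was 0.26 (SE 0.14).

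**Figure D1:**
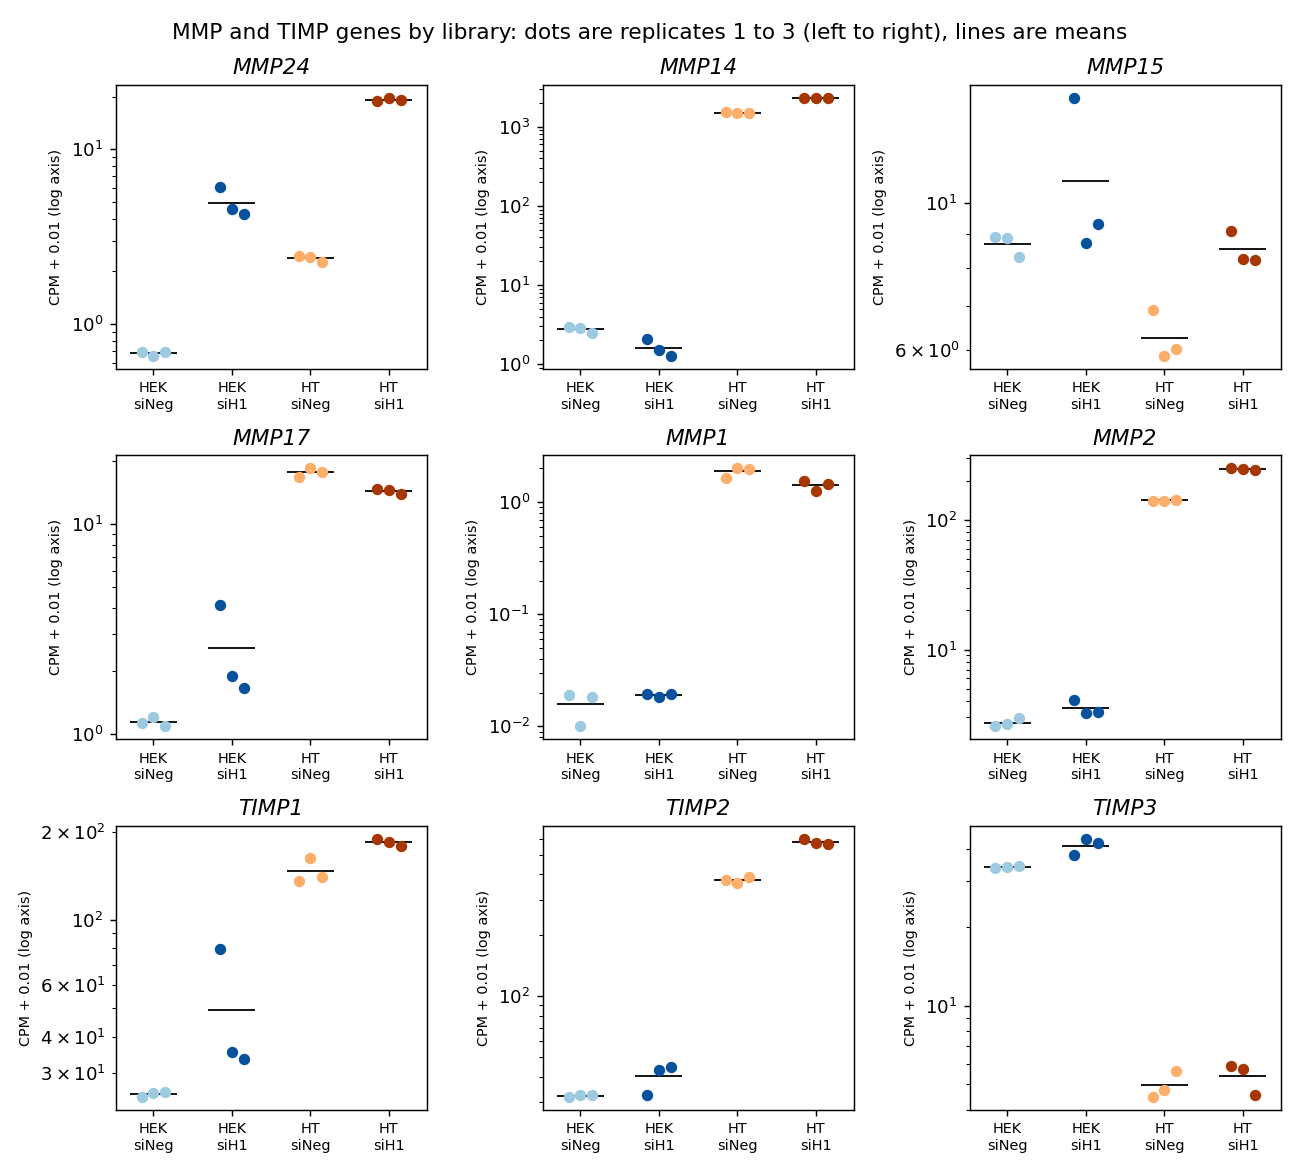
Level of each of the 9 genes in each of the 12 short-read libraries, as CPM plus 0.01 on a log axis whose range differs by panel, for HEK-293T (HEK) and HT-1080 (HT) with siNegative (siNeg) or siHNRNPH1 (siH1). Dots are replicates 1 to 3 and lines are group means; MMP24 lies at 4.23 to 6.08 CPM in HEK-293T siHNRNPH1 against 0.65 to 0.68 in its controls, and the HEK-293T siHNRNPH1 libraries of MMP17, MMP15 and TIMP1 are spread widely by replicate 1.

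The transcript tables list 1 transcript of MMP24, ENST00000246186.8, which holds 100% of the counts of the gene in every library. The whole rise is therefore counted on it, and a change between transcripts of MMP24 cannot be seen in these tables. No IsoSeq model lay on the strand of MMP24 in any of the 4 pools, which hold 64705 (HEK-293T siNegative), 94847 (HEK-293T siHNRNPH1), 72186 (HT-1080 siNegative) and 68078 (HT-1080 siHNRNPH1) models. The full-length data thus give no exon structure of the MMP24 transcript. On the opposite strand, 7 models in HT-1080 siNegative and 11 in HT-1080 siHNRNPH1 overlapped the span of MMP24, and none did in HEK-293T. These belong to MMP24OS, the gene on the opposite strand at the end of MMP24, which had 8 and 13 models in HT-1080 between chr20:35276355-35284787 (the submitters' processing notes name GRCh38.p13), with 2 to 8 exons.

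Strandedness of the short-read counting is not given in the sources used here, so reads of MMP24 and MMP24OS cannot be told apart where the genes overlap. MMP24OS averaged 28.1 CPM in HEK-293T siNegative and 27.8 with siHNRNPH1, a log2 fold change of -0.02 (adjusted p = 0.972). Without replicate 1 its fold change was -0.50 (adjusted p = 2.77e-09), in the direction opposite to that of MMP24. In HT-1080, MMP24OS rose from 34.8 to 52.0 CPM (log2 fold change 0.51, adjusted p = 0.000138). EDEM2, which acts in the disposal of misfolded glycoproteins, changed by 0.50 in HEK-293T (adjusted p = 0.358) and rose by 0.31 in HT-1080 (adjusted p = 0.00102). PROCR, the endothelial protein C receptor, rose by 1.02 in HEK-293T (adjusted p = 0.0424) and by 0.24 in HT-1080 (adjusted p = 0.00364). EIF6, an initiation factor that binds the large ribosomal subunit, changed by 0.19 in HEK-293T (adjusted p = 0.785) and fell by 0.44 in HT-1080 (adjusted p = 0.000101). In each line the log2 fold change of MMP24 was above that of each of these 4 neighbours. MMP24 was picked for its rise, so this order was favoured in advance and nothing is read from it. Without replicate 1, EDEM2 stood at 0.07 in HEK-293T (adjusted p = 0.237), PROCR at 0.75 (adjusted p = 1.64e-09) and EIF6 at -0.38 (adjusted p = 4.3e-09). The HT-1080 calls of these 4 neighbours were lost in the fit of all 12 libraries, as given in the closing section.

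**Figure D2:**
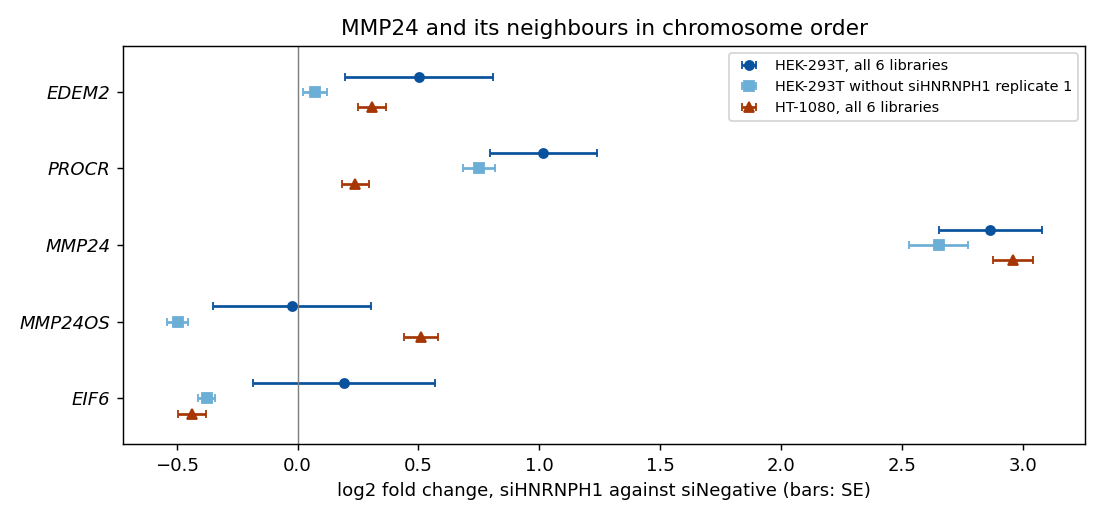
Log2 fold change with siHNRNPH1 against siNegative (horizontal axis, bars are SE) for MMP24 and 4 neighbouring genes in the order of the chromosome, in HEK-293T with all libraries, in HEK-293T without siHNRNPH1 replicate 1 and in HT-1080. MMP24 lies at 2.65 to 2.96, and PROCR, at 1.02 in HEK-293T, is the highest of the neighbours.

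Over the 12 libraries and 12173 genes whose counts averaged 50 or more in each line, the genes whose log2(CPM + 1) ran most like that of MMP24 were H2BC11 (Pearson r 0.997), ATP6V1FNB (0.989), MARVELD1 (0.987), H2BC5 (0.986) and RAB2A (0.984). These 12 points share libraries and 4 group levels, so the values are a description. H2BC5 and H2BC11 encode histone H2B proteins, and RAB2A encodes a small GTPase of vesicle traffic. H2BC5 averaged 0.82 and 3.39 CPM in HEK-293T siNegative and siHNRNPH1 and 1.98 and 15.1 in HT-1080. In each of the genes listed, the 4 group means were in the same order as those of MMP24, for which the genes were picked to run alike.

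The other 8 genes were tested in the fit of all genes, with a call at an adjusted p under 0.05. In HEK-293T, 7 of the 8 passed the filter on low counts and 0 of these 7 were called by edgeR, against 10.0% of all 19966 genes tested (5.12% higher, 4.88% lower). At an unadjusted p under 0.05 in edgeR there were 3, beside 5267 of all 19966 genes. DESeq2 gave 2 adjusted calls, MMP14 lower and MMP17 higher, beside 3982 of all 19966 genes. Without HEK-293T siHNRNPH1 replicate 1, 5 of the 7 were called (MMP14 lower, MMP17, TIMP1, TIMP2 and TIMP3 higher), against 61.6% of 20376 genes (30.4% higher, 31.2% lower). In HT-1080, 7 of 8 were called, 5 higher and 2 lower, against 65.3% of 16145 genes (32.7% higher, 32.6% lower). The median log2 fold change of the tested genes was 0.30 in HEK-293T (all genes, 0.02) and 0.32 in HT-1080 (all genes, 0.01). Since the genes were chosen with such values known, nothing is read from these counts against their backgrounds.

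**Figure D3:**
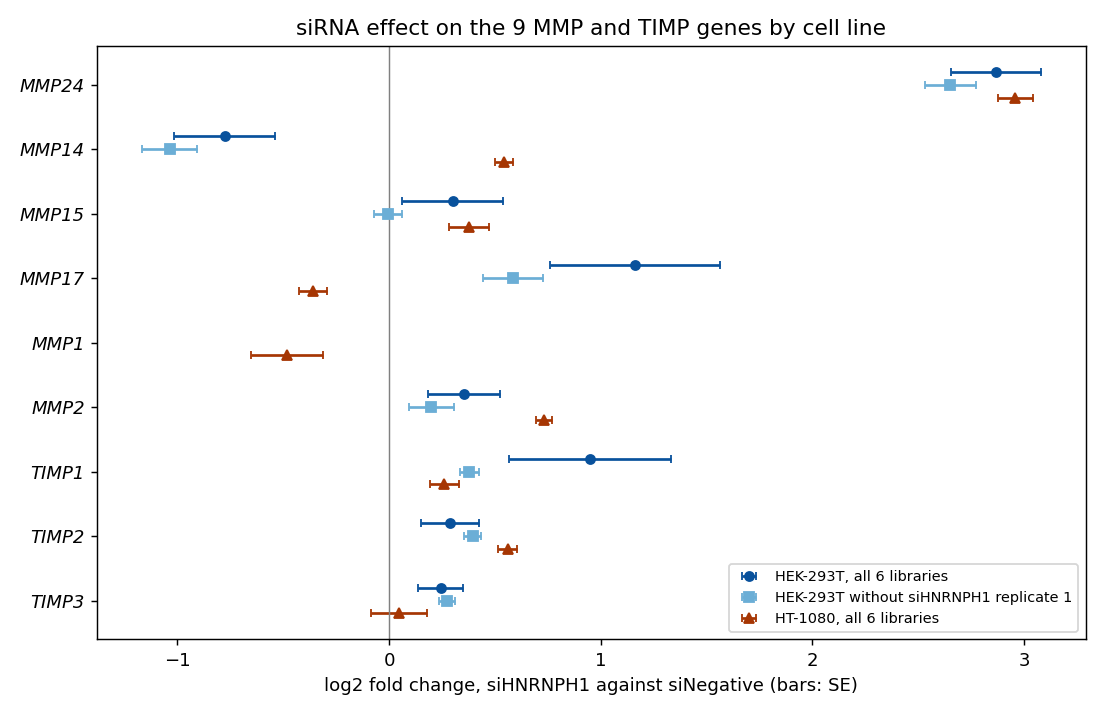
Log2 fold change with siHNRNPH1 against siNegative (horizontal axis, bars are SE) of the 9 genes in HEK-293T with all libraries, in HEK-293T without siHNRNPH1 replicate 1 and in HT-1080. MMP14 lies at -0.78 and -1.04 in HEK-293T and at 0.54 in HT-1080, MMP17 at 1.16 and 0.59 against -0.36, and MMP1 has no HEK-293T value because it did not pass the filter.

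MMP14 (ENSG00000157227.14), the main membrane-bound collagenase and the activator of proMMP2, rose in HT-1080 and lay lower in HEK-293T. In HEK-293T it stood at 2.91, 2.84 and 2.45 CPM with siNegative and at 2.08, 1.499 and 1.26 with siHNRNPH1. All treated libraries lay below all controls, with a log2 fold change of -0.78 (SE 0.24, adjusted p = 0.102), and it fell by 1.04 without replicate 1 (SE 0.13, adjusted p = 3.44e-07). In HT-1080 it stood at 1528, 1506 and 1496 CPM with siNegative and at 2319, 2314 and 2289 with siHNRNPH1. The groups were well apart, and MMP14 rose by 0.54 (SE 0.04, adjusted p = 3.22e-06). The difference between the lines, tested as a cell line by siRNA interaction, was 1.24 (SE 0.25, adjusted p = 0.006) and 1.53 without replicate 1 (adjusted p = 3.27e-09).

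Of the 8 listed transcripts of MMP14, ENST00000311852.11 held 96.3% to 97.3% of the counts in HT-1080 siNegative and rose there by 0.60 (SE 0.03, adjusted p = 0.000204). In HEK-293T it changed by -0.92 (SE 0.45, adjusted p = 0.432), and by -1.42 without replicate 1 (adjusted p = 0.0358). The share of ENST00000680097.1 in HEK-293T ran from 0.00 to 45.3% between siHNRNPH1 replicates, on few counts. MMP14 had 22 IsoSeq models in HT-1080 siNegative and 26 in HT-1080 siHNRNPH1, within chr14:22836543-22847761 and with 2 to 11 exons, and 0 in either HEK-293T pool.

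MMP15 (ENSG00000102996.5), another transmembrane MMP, stood at 8.90, 8.86 and 8.30 CPM in HEK-293T siNegative and at 14.4, 8.70 and 9.30 with siHNRNPH1. The groups overlapped, and replicate 1 alone lay well above the controls. Its log2 fold change was 0.30 (SE 0.24, adjusted p = 0.478), and -0.01 without replicate 1 (adjusted p = 0.945). HT-1080 libraries held 6.89, 5.88 and 6.01 CPM with siNegative and at 9.08, 8.24 and 8.22 with siHNRNPH1, so that every treated library was above every control. It rose by 0.38 (SE 0.09, adjusted p = 0.00561), a call that was lost in the fit of all 12 libraries (adjusted p = 0.234). Its transcript ENST00000219271.4 held 98.9% to 100% of the counts in every library. IsoSeq gave 2 models with siNegative and 1 with siHNRNPH1 in HT-1080, within chr16:58025765-58046898.

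MMP17 (ENSG00000198598.7), the lipid-anchored MMP of this set, stood at 1.13, 1.20 and 1.08 CPM in HEK-293T siNegative and at 4.12, 1.88 and 1.66 with siHNRNPH1. All treated libraries were above the controls, and replicate 1 was more than 2 times as high as the other two. Fitted over all 6 libraries, the log2 fold change was 1.16 (SE 0.40, adjusted p = 0.133), and 0.59 without replicate 1 (adjusted p = 0.00105). In HT-1080 the order was the opposite: 16.8, 18.4 and 17.8 CPM with siNegative against 14.7, 14.6 and 13.9 with siHNRNPH1. It fell by 0.36 (SE 0.07, adjusted p = 0.00088), and the call was lost in the fit of all 12 libraries (adjusted p = 0.415). The interaction was -1.61 (SE 0.44, adjusted p = 0.0267). This call was lost under 10 of 17 alternatives (adjusted p 0.0527 to 0.0675), among them leaving out any 1 HEK-293T siNegative library or any 1 HT-1080 library. Without HEK-293T siHNRNPH1 replicate 1 the interaction was -0.998 (adjusted p = 4.8e-06).

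The counts of MMP17 were split over 9 listed transcripts, with shares that varied between replicates. ENST00000535291.5 held 72.7%, 75.1% and 63.7% in HT-1080 siNegative and 45.1%, 54.5% and 71.8% with siHNRNPH1. ENST00000360564.5 held 15.2%, 12.8% and 25.6% and then 39.4%, 33.9% and 14.6%. For both transcripts the groups overlapped, since replicate 3 of each group lay toward the other. At transcript level in HT-1080, ENST00000535291.5 changed by -0.62 (SE 0.18, adjusted p = 0.0741) and ENST00000360564.5 by 0.42 (SE 0.46, adjusted p = 0.633). IsoSeq gave 3 and 1 models in HT-1080, each of 10 exons, within chr12:131828393-131853860.

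**Figure D4:**
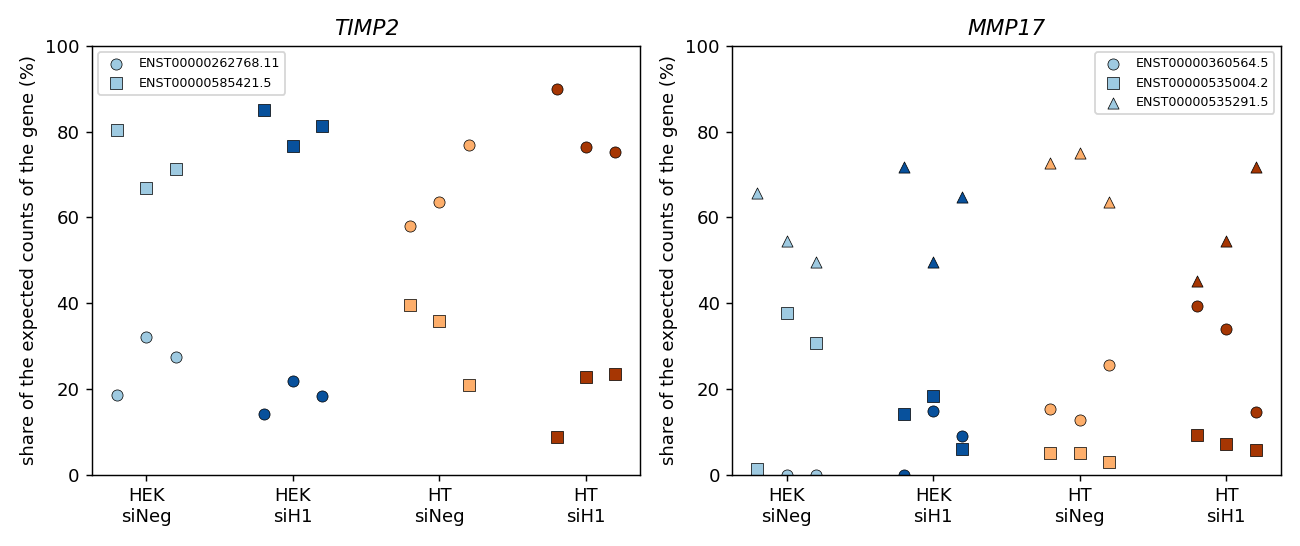
Share of the expected counts of TIMP2 and of MMP17 held by each transcript with at least 10% in any group (vertical axis, %), by library, with replicates 1 to 3 from left to right in HEK-293T (HEK) and HT-1080 (HT) with siNegative (siNeg) or siHNRNPH1 (siH1). ENST00000585421.5 leads TIMP2 in every HEK-293T library and ENST00000262768.11 in every HT-1080 library, and the shares of ENST00000535291.5 and ENST00000360564.5 of MMP17 overlap between the siRNAs.

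MMP1 (ENSG00000196611.6), the secreted interstitial collagenase, had at most 1 count in each HEK-293T library and was not tested there. In HT-1080 it stood at 1.65, 1.99 and 1.98 CPM with siNegative (45, 60 and 60 counts) and at 1.54, 1.26 and 1.44 with siHNRNPH1 (45, 41 and 41 counts). The treated libraries lay just below the controls. MMP1 fell by 0.48 (SE 0.17, adjusted p = 0.029), but 9 of 12 alternatives ended the call (adjusted p 0.0502 to 0.123), DESeq2 among them. Leaving out siNegative replicate 2 or 3, or siHNRNPH1 replicate 2 or 3, ended it as well. IsoSeq gave 1 model of 10 exons in each HT-1080 pool, both at chr11:102789920-102798161.

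MMP2 (ENSG00000087245.13), the secreted gelatinase that MMP14 activates, stood at 2.55, 2.67 and 2.95 CPM in HEK-293T siNegative and at 4.08, 3.25 and 3.27 with siHNRNPH1. The groups did not overlap, and the log2 fold change was 0.36 (SE 0.17, adjusted p = 0.249), and 0.20 without replicate 1 (adjusted p = 0.105). HT-1080 held 139.8, 140.4 and 142.1 CPM with siNegative and 249.0, 245.2 and 241.0 with siHNRNPH1. Replicates were within a few CPM of each other, and MMP2 rose by 0.73 (SE 0.04, adjusted p = 2.24e-07). Its main transcript, ENST00000219070.9, with 88.8% to 91.9% of the counts in HT-1080, rose by 0.79 (SE 0.04, adjusted p = 0.000227). IsoSeq gave 10 and 12 models in HT-1080 and 0 in HEK-293T, within chr16:55479192-55508057, with 10 to 13 exons.

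TIMP1 (ENSG00000102265.12), a secreted inhibitor that acts poorly on most membrane-type MMPs, stood at 24.9, 25.6 and 26.0 CPM in HEK-293T siNegative and at 79.3, 35.5 and 33.6 with siHNRNPH1. All treated libraries were above the controls, and replicate 1 stood far above the rest. The log2 fold change was 0.95 (SE 0.38, adjusted p = 0.184), and TIMP1 rose by 0.38 without replicate 1 (SE 0.04, adjusted p = 7.45e-08). TIMP1 in HT-1080 stood at 136.3, 162.5 and 140.2 CPM with siNegative and at 189.0, 184.6 and 178.2 with siHNRNPH1. It rose by 0.26 (SE 0.07, adjusted p = 0.00759), a call lost in the fit of all 12 libraries (adjusted p = 0.601). TIMP1 lies within SYN1, a synapsin gene on the opposite strand, and reads of the genes cannot be told apart where they overlap. SYN1 rose in HEK-293T from 0.50 to 4.07 CPM (log2 fold change 3.01, adjusted p = 0.00831, and 2.63 without replicate 1, adjusted p = 3.1e-13), and averaged 0.18 and 0.10 CPM in HT-1080.

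TIMP2 (ENSG00000035862.12), which inhibits MMPs and also anchors proMMP2 to MMP14, stood at 31.8, 32.5 and 32.4 CPM in HEK-293T siNegative and at 32.4, 43.3 and 44.9 with siHNRNPH1. Here replicate 1 lay at the control level while replicates 2 and 3 lay above it. The log2 fold change was 0.29 (SE 0.14, adjusted p = 0.252), and TIMP2 rose by 0.40 without replicate 1 (adjusted p = 9.76e-09). In HT-1080 it stood at 374.4, 363.2 and 386.9 CPM with siNegative and at 600.2, 569.7 and 568.6 with siHNRNPH1. The groups were well apart, and TIMP2 rose by 0.56 (SE 0.04, adjusted p = 3.53e-06).

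Both lines counted TIMP2 mostly on 1 transcript, but not on the same one. ENST00000585421.5 held 80.4%, 66.9% and 71.3% in HEK-293T siNegative and 85.1%, 76.8% and 81.2% with siHNRNPH1. In HT-1080 it held 39.5%, 35.9% and 20.9% with siNegative and 8.79%, 22.9% and 23.4% with siHNRNPH1. ENST00000262768.11 held 18.5%, 32.1% and 27.4%, then 14.2%, 21.7% and 18.3% in HEK-293T, and 58.0%, 63.5% and 77.0%, then 89.9%, 76.4% and 75.3% in HT-1080. In each line the siRNA groups overlapped for both transcripts. In HT-1080, ENST00000262768.11 rose by 0.89 (SE 0.15, adjusted p = 0.0126), and ENST00000585421.5 changed by -0.21 (SE 0.41, adjusted p = 0.802). Whether the shares themselves differed between the siRNAs was not tested. IsoSeq gave 7 and 6 models in HT-1080, of 2 to 5 exons, within chr17:78852985-78925387, and the 5-exon models run over the whole span. HEK-293T gave 0 models with siNegative and 1 with siHNRNPH1, a 3-exon model at chr17:78852985-78870998.

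TIMP3 (ENSG00000100234.12), the inhibitor that is bound to the matrix and also acts on ADAM proteases, stood at 33.9, 34.0 and 34.3 CPM in HEK-293T siNegative and at 37.7, 43.7 and 42.0 with siHNRNPH1. The groups did not overlap, with a log2 fold change of 0.24 (SE 0.11, adjusted p = 0.209), and a rise of 0.27 without replicate 1 (adjusted p = 1.98e-06). In HT-1080 it stood at 4.47, 4.75 and 5.62 CPM with siNegative and at 5.86, 5.70 and 4.53 with siHNRNPH1. The groups overlapped, and the log2 fold change was 0.05 (SE 0.13, adjusted p = 0.762). A single transcript of TIMP3 is listed. It lies within SYN3, on the opposite strand, which changed by 0.35 in HEK-293T (adjusted p = 0.625, and 0.71 without replicate 1, adjusted p = 2.37e-06). TIMP3 was the only one of the 9 genes with IsoSeq models in all 4 pools, 2 and 3 in HEK-293T and 2 and 1 in HT-1080. All have 5 exons, and they differ by their far end: models of 2122 to 2125 bases end at position 32860566 or 32860567 of chromosome 22, models of 4596 or 4598 bases end at 32863040, and 1 model of 2552 bases, in HEK-293T siHNRNPH1, ends at 32860996.

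At transcript level, none of the HEK-293T transcripts with at least 10% of a gene was called (0.248% of 89488 transcripts tested were, 0.0983% higher and 0.150% lower). In the edgeR test, 1 of the transcripts with at least 10% of a gene had an unadjusted p under 0.05, beside 12821 of all 89488. In HT-1080, 3 were called, all higher, those of MMP14, MMP2 and TIMP2 named above (16.1% of 64605, 7.91% higher and 8.18% lower). Without HEK-293T siHNRNPH1 replicate 1, 4 were called in that line (16.0% of 96155, 7.29% higher and 8.71% lower), lower for ENST00000311852.11 of MMP14 and higher for ENST00000218388.9 of TIMP1, ENST00000585421.5 of TIMP2 and ENST00000266085.7 of TIMP3. MMP24 is left out of these transcript counts. Of the 8 genes other than MMP24, 2 had an effect that differed between the lines, MMP14 and MMP17 (19.0% of 21276 genes were called in this interaction, 8.13% higher and 10.8% lower in HT-1080). Without HEK-293T siHNRNPH1 replicate 1 there were 4 (49.0% of 19447 genes, 22.7% higher and 26.4% lower), with MMP2 at 0.48 (adjusted p = 9.76e-05) and MMP15 at 0.33 (adjusted p = 0.0224) in addition. The MMP15 difference was -0.01 with all libraries.

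The siNegative groups of the lines were compared as well. Line and table cannot be told apart here, since the counts of each line were deposited separately and the lines also differ in medium and depth. All 9 genes were called between the lines, 7 higher in HT-1080 and 2 lower, against 86.6% of 19776 genes called (40.8% higher, 45.8% lower). MMP14 had the largest fitted difference, 9.37 on the log2 scale (adjusted p = 5.6e-13), with 2.45 to 2.91 CPM in HEK-293T and 1496 to 1528 in HT-1080. MMP2 was higher in HT-1080 by 5.94 (adjusted p = 1.07e-12), MMP17 by 4.21 (adjusted p = 2.4e-11), TIMP2 by 3.80 (adjusted p = 1.96e-12), TIMP1 by 2.78 (adjusted p = 2.34e-10) and MMP24 by 2.07 (adjusted p = 2.24e-07). MMP1 is among the 7, but it passed the filter on low counts only through HT-1080, so its call could only be higher. No fold or p-value is given for MMP1, because HEK-293T libraries held at most 1 count. TIMP3 was lower in HT-1080, with a difference of -2.53 (adjusted p = 4.64e-10). MMP15 was lower by a difference of -0.22 (adjusted p = 0.0227), a call lost under 4 of 11 alternatives (adjusted p 0.0531 to 0.076), among them leaving out HEK-293T siNegative replicate 1 or 2 or HT-1080 siNegative replicate 3. The median over all genes was -0.10, and -0.36 with scaling by library size alone.

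The rest of the MMP family was read from a list of 17 further MMP genes. In HT-1080, where 65.3% of all genes were called, 6 of them passed the filter on low counts, and 4 rose and 2 fell. MMP9, MMP19 (31 to 38 counts with siNegative, 4 to 11 with siHNRNPH1), MMP13 (8 to 12 and 16 to 24) and MMP23B (3 to 13 and 45 to 64) passed it through the group in which they are high. This count therefore does not support a change of the list, and the adjusted p-values of these genes in HT-1080 carry the same limit. MMP9, the other gelatinase, averaged 7.997 CPM with siNegative (7.76 to 8.14) and 0.19 with siHNRNPH1 (0.06 to 0.31, or 2 to 9 counts). Every treated library lay far below every control, and MMP9 fell by 5.44 (SE 0.24, adjusted p = 7.73e-08), while MMP2 rose. Among the others in HT-1080, MMP19 fell by 2.34 (adjusted p = 2e-04), and MMP3, a stromelysin whose gene neighbours MMP1, rose by 0.66 (adjusted p = 0.00308), a call lost in the fit of all 12 libraries (adjusted p = 0.0905). MMP13, a collagenase named like MMP16 and MMP19 after its values were seen, rose by 0.88 (adjusted p = 0.0275), and MMP16, a membrane-type MMP, by 0.69 (adjusted p = 0.000118). In HEK-293T, 6 of the 17 passed the filter, 1 rose and 5 were not called (4 rose and 2 were not called without siHNRNPH1 replicate 1). Of all genes, 10.0% were called in HEK-293T (5.12% higher), and 61.6% without that library (30.4% higher). With all libraries the one that rose was MMP23B, from 0.30 to 1.75 CPM (0.76 to 3.09 by library, log2 fold change 2.52, SE 0.56, adjusted p = 0.0456). Without replicate 1 its fold change was 1.78 (SE 0.25, adjusted p = 2.36e-06). It rose in HT-1080 too, from 0.24 to 1.71 CPM (2.75, SE 0.36, adjusted p = 0.000109). MMP23B has a near-identical copy, MMP23A, so its counts are uncertain, and its HEK-293T call was lost without any 1 of the siNegative libraries or without siHNRNPH1 replicate 2 (adjusted p up to 0.186).

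**Figure D5:**
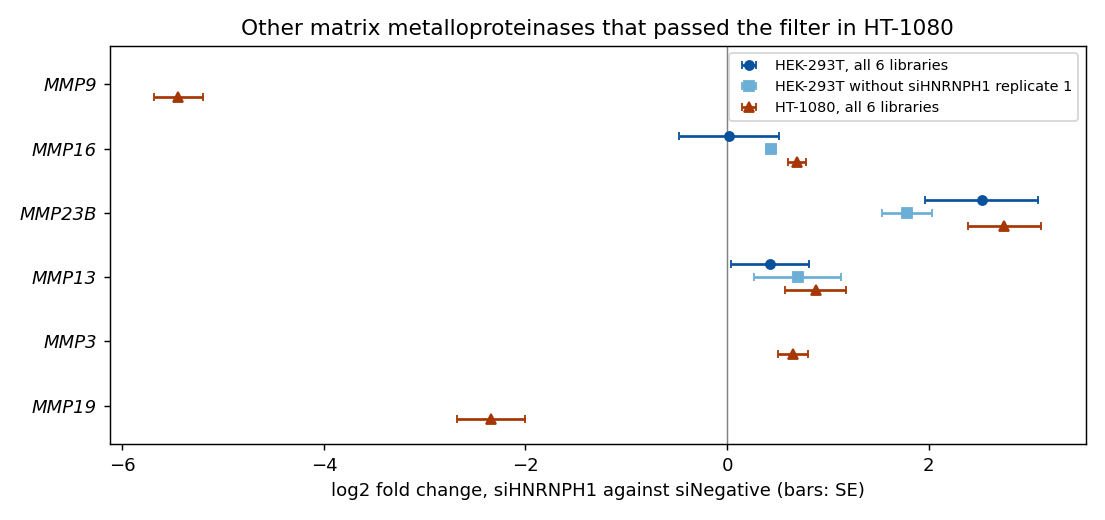
Log2 fold change with siHNRNPH1 against siNegative (horizontal axis, bars are SE) of the 6 further MMP genes that passed the filter in HT-1080, with HEK-293T values where the gene passed there. MMP9 at -5.44 and MMP19 at -2.34 lie below 0 in HT-1080, and MMP23B lies at 2.52 in HEK-293T and 2.75 in HT-1080.

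In the lists that follow, HEK-293T counts and values are given first with all libraries and then without siHNRNPH1 replicate 1, and 10.0% and 61.6% of all genes were called in these fits, against 65.3% in HT-1080. Among 7 further inhibitors of MMPs, 5 were tested in HEK-293T (1 fell, then 1 rose and 1 fell) and 2 in HT-1080 (both rose). SPOCK3, a testican, fell by 1.18 in HEK-293T (adjusted p = 0.00939), then by 1.14 (adjusted p = 1.94e-08). SPOCK1, another testican, rose by 0.59 in HT-1080 (adjusted p = 2.58e-05), a call lost in the fit of all 12 libraries (adjusted p = 0.122). RECK, a membrane-anchored inhibitor of MMP2, MMP9 and MMP14, changed by -0.16 in HEK-293T (adjusted p = 0.698), then by 0.06 (adjusted p = 0.313), and rose by 0.26 in HT-1080 (adjusted p = 0.0135), a call lost without siNegative replicate 1 or without siHNRNPH1 replicate 1 or 2 (adjusted p from 0.051). Of 10 genes for the activation of proMMPs and its control, 8 were tested in HEK-293T (1 rose, then 3 rose and 4 fell) and 9 in HT-1080 (5 rose, 4 fell). FURIN, the convertase that cuts the propeptide of membrane-type MMPs, changed by -0.23 in HEK-293T (adjusted p = 0.332), then fell by 0.32 (adjusted p = 1.83e-06), and rose by 0.33 in HT-1080 (adjusted p = 7.64e-05). PLAT, the tissue plasminogen activator, rose by 0.55 in HEK-293T (adjusted p = 0.0342), then by 0.50 (adjusted p = 4.38e-11), and fell by 0.47 in HT-1080 (adjusted p = 7.78e-06). SERPINE2, an inhibitor of plasminogen activators, changed by 0.49 in HEK-293T (adjusted p = 0.0559), then rose by 0.55 (adjusted p = 3.74e-09), and rose by 1.00 in HT-1080 (adjusted p = 7.05e-08). The 5 that rose in HT-1080 were FURIN, SERPINE2 and the convertase genes PCSK5, PCSK6 and PCSK7. In this and the following lists, genes given without a value are named after their values were seen.

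Of 11 transcription factor genes of the AP-1 and ETS families, which are known to act on MMP promoters, all were tested, with 3 rising and 1 falling in HEK-293T (then 4 rising and 4 falling) and 2 rising and 5 falling in HT-1080. With all libraries, those that rose in HEK-293T were FOSB, FOSL2 and JUN, and the one that fell was ETV5. In HT-1080, FOSB and JUND rose, and ETS1, ETV4, FOSL1, JUN and JUNB fell. FOSB rose by 0.92 in HEK-293T (adjusted p = 0.0186), then by 0.89 (adjusted p = 1.15e-06), and by 3.28 in HT-1080 (adjusted p = 1.4e-07), there from 0.62 to 6.31 CPM. Of 17 substrates and cell-surface partners, 16 were tested in HEK-293T (CD44 and GRIP2 rose, then 7 rose and 2 fell) and 14 in HT-1080 (11 rose, 3 fell). FN1, fibronectin of the matrix, changed by -0.52 in HEK-293T (adjusted p = 0.385), then fell by 0.21 (adjusted p = 1.29e-05), and rose by 1.52 in HT-1080 (adjusted p = 3.73e-07), from 1003 to 3007 CPM. CDH2, the N-cadherin that MMP24 cuts, changed by 0.14 in HEK-293T (adjusted p = 0.776), then rose by 0.38 (adjusted p = 4.94e-10). It rose by 0.22 in HT-1080 (adjusted p = 0.00649), a call lost in the fit of all 12 libraries (adjusted p = 0.457). GRIP2, a scaffold protein of synapses, rose by 1.15 in HEK-293T (adjusted p = 0.0174), then by 1.23 (adjusted p = 7.34e-09). Of 12 ADAM family proteases, which TIMP3 can inhibit, 12 were tested in HEK-293T (1 fell, then 6 rose and 2 fell) and 9 in HT-1080 (5 rose, ADAM8, ADAM9, ADAM12, ADAM15 and ADAM19, and 2 fell, ADAM10 and ADAM17). ADAM10, a sheddase of the cell surface, fell by 1.52 in HEK-293T (adjusted p = 0.0396), then by 1.23 (adjusted p = 1.43e-17). It fell by 0.64 in HT-1080 (adjusted p = 1.32e-05, and 0.0541 in the fit of all 12 libraries), while ADAM12 rose by 1.61 in HT-1080 (adjusted p = 5.15e-06). The HEK-293T calls of PLAT, FOSB, GRIP2, ADAM10, SPOCK3, PROCR and SYN1 were each lost when any 1 siNegative library was left out (adjusted p up to 0.195). Median log2 fold changes in HT-1080 were 0.68 for the further MMPs, 0.42 for the inhibitors, 0.33 for the activation genes, -0.04 for the AP-1 and ETS genes, 0.35 for the substrates and 0.24 for the ADAM family, beside 0.01 for all genes. The first rests on 6 tested genes, with the filter limit given above, and the second on 2. In HEK-293T the medians, in the same order, were 0.48, -0.08, -0.002, 0.03, -0.09 and 0.27, beside 0.02 for all genes. Without siHNRNPH1 replicate 1 they were 0.565, 0.06, -0.19, -0.007, 0.12 and 0.30, beside -0.005. Nothing is read from these medians.

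Of 12 listed genes that neighbour or overlap the 9, 10 were tested in HEK-293T (2 rose, PROCR and SYN1, then 4 rose and 4 fell) and 8 in HT-1080 (6 rose, 1 fell). LRP10, a receptor gene next to MMP14, changed by -0.07 in HEK-293T (adjusted p = 0.817), then fell by 0.23 (adjusted p = 5.22e-05), and rose by 0.45 in HT-1080 (adjusted p = 1.52e-05), in the same direction as MMP14 there. ULK1, an autophagy kinase gene next to MMP17, changed by 0.44 in HEK-293T (adjusted p = 0.136), then rose by 0.31 (adjusted p = 0.00423), and rose by 1.04 in HT-1080 (adjusted p = 4.67e-08), where MMP17 fell. LPCAT2, next to MMP2, changed by -0.61 in HEK-293T (adjusted p = 0.116), then fell by 0.43 (adjusted p = 1.21e-07), and changed by -0.12 in HT-1080 (adjusted p = 0.156), where MMP2 rose. WTAPP1, a pseudogene that overlaps MMP1, changed by 0.85 in HEK-293T (adjusted p = 0.137), then by 0.84 (adjusted p = 0.0767).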

How the data were processed

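Short-read RNA-seq libraries (3 per group) and 1 IsoSeq pool per group were analysed. The authors deposited expected counts per transcript, 1 table per line, estimated with RSEM on GRCh38.p13 per the submitters' processing notes; version, annotation release, trimming and strandedness are not given in the sources used here. Every value column matched a sample by name. The authors' deposited IsoSeq files hold exon start and end positions of transcript models and no abundance. The expected counts were added up over the transcripts of each gene and rounded to whole numbers. Genes past filterByExpr were scaled by TMM and tested with edgeR 4.0.16 (two-sided quasi-likelihood test, robust, Benjamini-Hochberg adjusted over all genes, threshold 0.05), each line on its 6 libraries, the baseline on the 6 siNegative libraries and the interaction on all 12. SE is the absolute log2 fold change divided by the square root of F. DESeq2 1.42.0, R 4.3.3 and Python 3.11.15 were used. CPM is the count divided by the library total. The gene-level edgeR test of each line was tried on simulated counts with known changes and without a library that stands apart. The transcript, baseline, interaction, DESeq2 and IsoSeq steps were not tried in this way. No 2 libraries of a group agree within sampling noise, so each was counted as 1 replicate. P-values measure the spread between these replicates. The members, lists and naming rules (per list, the called gene of largest change in each line with a mean count of at least 50; neighbours from a mean count of 10; FURIN, RECK, CDH2, MMP24OS, EDEM2) were chosen with earlier results of these data known. Alternatives changed scaling, filter, tool, block and libraries. Some genes of the lists are counted but not reported here by name.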

Additional observations from a re-analysis of the deposited data

Results flagged for a closer look

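For 9 genes, the edgeR interaction of line and siRNA (HT-1080 effect minus HEK-293T effect, log2 scale) passed the threshold. These are from the 9 genes of the report, with MMP24 not tested, and the genes that the naming rule gave. Of all 21276 genes tested, 19.0% were called in this interaction. PLAT, SERPINE2, FN1, FOSB and SYN1 were named for the size of their siRNA change in a line, in the same libraries. Their interaction p-values are therefore favoured in advance, and nothing is read from the count of 9. Genes named after their values were seen, or as markers of a line, were not included. Among the genes of the report it was 1.24 for MMP14 (adjusted p = 0.006) and -1.61 for MMP17 (adjusted p = 0.0267). Among genes of the activation of proMMPs it was 0.49 for FURIN (adjusted p = 0.0403), -1.09 for PLAT (adjusted p = 0.000136) and 0.44 for SERPINE2 (adjusted p = 0.0194). It was 1.97 for FN1 (adjusted p = 0.00306), 2.29 for FOSB (adjusted p = 6.35e-05), -0.86 for PROCR (adjusted p = 0.0372) and -4.01 for SYN1 (adjusted p = 0.00811). SYN1, on at most 7 counts per HT-1080 library, rests on the HEK-293T change. Leaving out 1 library ended the call of FURIN, PROCR, SERPINE2 and MMP17 in several fits, and the spread of HEK-293T siHNRNPH1 replicate 1 enters all of them.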

How the results depend on the processing

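The log2 fold change of MMP24 in HEK-293T ran from 2.65 to 2.97 and that in HT-1080 from 2.92 to 3.03, over 12 settings each. Of the values of the other 8 genes under alternatives, 364 kept their side of the threshold, 26 lost the call and 13 gained it. Only 1 changed direction with a call in either fit. It was the MMP15 interaction: -0.01 became 0.33 (adjusted p = 0.0224) without HEK-293T siHNRNPH1 replicate 1 (-0.17 to 0.33 leaving out 1 library). Uncalled values also changed direction, for example MMP15 in HEK-293T (0.30, and -0.01 without siHNRNPH1 replicate 1). TIMP3 in HT-1080, 0.05, was -0.03 at its lowest. EIF6 in HEK-293T, 0.19, became -0.38 (adjusted p = 4.3e-09) without siHNRNPH1 replicate 1 (-0.38 to 0.41 leaving out 1 library). Other causes were not tested. HEK-293T genes called, 1997, became 3982 with DESeq2, 1302 with the low-count filter off, 4551 in the fit of all 12 libraries and 0 with the replicate block (edgeR, 4169 at an unadjusted p under 0.05). They ran from 0 to 12553 leaving out 1 library (without siNegative replicates 1, 2 and 3: 20, 0 and 0; without siHNRNPH1 replicates 1, 2 and 3: 12553, 245 and 635; at least 3486 at an unadjusted p). HT-1080 genes called, 10538, became 6237 in the fit of all 12 libraries, in which the spread of both lines is shared. There MMP24OS (adjusted p = 0.197), EDEM2 (0.422), PROCR (0.391), EIF6 (0.314) and RECK (0.328) lost their HT-1080 calls, besides the genes for which the report gives this. Interaction calls, 4034, became 2535 with the replicate block and ran from 2776 to 9535 leaving out 1 library, the latter without HEK-293T siHNRNPH1 replicate 1. HEK-293T transcripts called, 222, became 0 with the replicate block (8062 unadjusted) and ran from 0 to 15382 leaving out 1 library (at least 8008 unadjusted), again highest without siHNRNPH1 replicate 1. HT-1080 transcripts called, 10398, became 4886 with the replicate block and ran from 6038 to 9622 leaving out 1 library, with 6800 without siNegative replicate 3 and 6063, 6043 and 6038 without siHNRNPH1 replicates 1, 2 and 3. Whether replicate numbers pair the samples is not settled by these data. Deviations of same-numbered libraries correlated at 0.03 to 0.11 in HEK-293T and 0.04 to 0.13 in HT-1080. Libraries of different number correlated at -0.10 to 0.07 and at -0.14 to 0.07. In HEK-293T 5 of 6 libraries, and in HT-1080 4 of 6, were closest to their own number. Under the block, the calls of MMP1 in HT-1080 (adjusted p = 0.0591), the MMP17 interaction (0.0591), the MMP15 baseline (0.0531) and ENST00000262768.11 of TIMP2 in HT-1080 (0.073) were lost. MMP1 in HEK-293T, at most 1 count per library, is below what this depth can compare.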
